A study of Homo sapiens with 12 samples.

Results

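The genes described here encode subunits of neurotransmitter receptors: the nicotinic acetylcholine receptor subunits CHRNB2, CHRNA5, CHRNA7 and CHRNB1, the GABA-B receptor subunits GABBR1 and GABBR2, the GABA-A subunit GABRA5, the NMDA receptor subunit GRIN2D and the kainate receptor subunit GRIK5. The set was chosen by gene symbol around CHRNB2 and GABBR1, which were picked on their measured differences between the groups of these same libraries. Of the 9 genes named, 7 were among the 13951 genes with values, and GABBR2 and GABRA5 were not analysed here. Expression was measured by RNA-seq in CWR22Rv1 cells, an established human prostate cancer cell line, in 4 groups of 3 replicates.

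All 4 groups were grown for 48 h in RPMI with serum and puromycin, so puromycin resistance was shared. The Control cells expressed Cas9 with no guide RNA. LV-MEIS1 cells carried a lentiviral MEIS1 construct selected with puromycin, from which MEIS1 was transcribed, and whether they also expressed Cas9 is not given in the sources used here. HOXB13ko cells were a pool of clonal lines that expressed Cas9 and were edited with a guide to the part of HOXB13 that encodes its N-terminus, and HOXB13ko-LV-MEIS1 cells were made from that pool with the same lentivirus. MEIS1 and HOXB13 encode homeodomain transcription factors that can bind DNA together. Each group was thus 1 derived line or pool, and the replicates do not show how far independently derived lines would differ. Nothing in the labels says that the replicates were separate cultures, so the p-values measure the spread between these libraries only. The comparison of the 2 HOXB13 backgrounds asks whether the differences that go with MEIS1 are alike in both. HOXB13 status, the level of MEIS1 and the derived line cannot be told apart in it.

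Library labels were checked on the targeted genes. MEIS1 was at 4.05 to 4.45 CPM (read counts scaled to library size) in Control, 45.8 to 49.6 in LV-MEIS1, 3.42 to 3.65 in HOXB13ko and 29.3 to 30.1 in HOXB13ko-LV-MEIS1. Its level was thus lower in HOXB13ko-LV-MEIS1 than in LV-MEIS1. HOXB13 mRNA was not lower but higher in the libraries labelled HOXB13ko, at 307.0 to 347.0 CPM against 185.0 to 215.0 in Control, and at 326.0 to 375.0 CPM in those labelled HOXB13ko-LV-MEIS1. Loss of HOXB13 therefore rests on the labels and on the protein blots described in the study's methods, and every direction below that uses these libraries is by label. The 10 luminal prostate markers examined, among them KLK3 and KLK2, were all measured, and their summed level was 2600.0 to 3920.0 CPM over the 12 libraries. Of 10 markers of neurons, RBFOX3, STMN2, ELAVL3, ELAVL4, NEFL, NEFM and GAP43 were not listed. Low CPM steps gave depths of about 17200000 to 28700000 reads, at which 3 reads are worth 0.105 to 0.175 CPM.

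Nicotinic receptors are cation channels of 5 subunits opened by acetylcholine, and the subunits present decide the pharmacology of the channel. CHRNB2 encodes the beta2 subunit, which pairs with alpha subunits in most nicotinic receptors of the brain, and CHRNA5 encodes an accessory subunit that joins such receptors without binding the transmitter in the usual way. CHRNA7 encodes a subunit that can form a channel by itself, and CHRNB1 the beta subunit of the muscle receptor. GABBR1 encodes the GABA-binding subunit of the GABA-B receptor, a G protein-coupled receptor that reaches the cell surface only with GABBR2. GRIN2D encodes a glutamate-binding subunit of NMDA receptors, which all contain the GRIN1 subunit, and GRIK5 a kainate receptor subunit that needs another kainate subunit to form a channel. These receptors are best known from synapses, and several are also found in epithelial and tumour cells.

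The stretches before the transcription start of CHRNB2, GABBR1 and CHRNB1 are shown because the first 2 differed most between the groups and CHRNB1 is the member whose window holds the core letters bound by MEIS proteins. They are the 250 bases before the RefSeq start on GRCh38.p14, written 5′ to 3′ on the strand of the gene, and capitals mark motif matches. CHRNB2 lies on the forward strand at chr1:154567528-154567777, GABBR1 on the reverse strand at chr6:29628014-29628263 and CHRNB1 on the forward strand at chr17:7444811-7445060.
CHRNB2: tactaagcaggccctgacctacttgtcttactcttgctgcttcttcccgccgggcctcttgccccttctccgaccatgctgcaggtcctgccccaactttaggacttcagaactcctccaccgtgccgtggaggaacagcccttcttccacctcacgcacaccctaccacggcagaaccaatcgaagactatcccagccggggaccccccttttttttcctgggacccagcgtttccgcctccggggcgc
GABBR1: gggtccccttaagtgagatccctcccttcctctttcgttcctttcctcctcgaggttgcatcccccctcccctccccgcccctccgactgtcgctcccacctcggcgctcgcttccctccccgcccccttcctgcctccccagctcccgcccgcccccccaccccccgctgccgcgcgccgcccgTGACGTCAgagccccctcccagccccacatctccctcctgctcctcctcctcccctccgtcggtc
CHRNB1: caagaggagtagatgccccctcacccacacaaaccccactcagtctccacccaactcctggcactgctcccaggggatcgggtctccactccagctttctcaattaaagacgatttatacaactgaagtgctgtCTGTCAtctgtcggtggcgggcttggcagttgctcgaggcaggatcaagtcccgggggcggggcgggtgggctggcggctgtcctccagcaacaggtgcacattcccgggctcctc
Windows of 300 bases, these 250 and the 50 bases that follow, were searched on both strands for TGACAG, the MEIS core, for CAATAAA, a HOXB13 site, and for TGACGTCA, the cAMP response element, which was added after the GABBR1 sequence had been read. TGACAG was found in 15.9% of 27305 promoter windows and in 13.2% of the 10646 windows of genes measured here. Among the receptor genes measured it was in 4 of 24 windows, those of CHRNA3, CHRNB1, CHRNE and GRIA2. In CHRNB1 it lies on the reverse strand at position -116 from the start and reads CTGTCA as printed. CAATAAA was found in 4.12% of all windows, in 2.16% of those of measured genes and in 0 of the 24 receptor windows. TGACGTCA was found in 1.98% of all windows, in 3.11% of those of measured genes and, among the receptor genes, in GABBR1 alone, at position -65. The windows of CHRNB2, CHRNA7, GRIN2D and GRIK5 held none of the 3 motifs, and CHRNA5 was not searched. These matches describe letters in the windows and say nothing about binding in these cells.

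Levels of the 7 genes were compared per length within Control, as CPM per kb of the canonical transcript. GRIN2D was the highest at 7.68 CPM per kb, followed by CHRNA5 at 3.37, CHRNB1 at 2.97 and CHRNB2 at 2.06. GABBR1 stood at 1.13 CPM per kb, GRIK5 at 0.434 and CHRNA7 at 0.183. In LV-MEIS1 the order changed: GABBR1, at 6.41 CPM per kb, came next to GRIN2D at 8.44, and CHRNB2, at 0.0472, was the lowest of the 7.

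**Figure D1:**
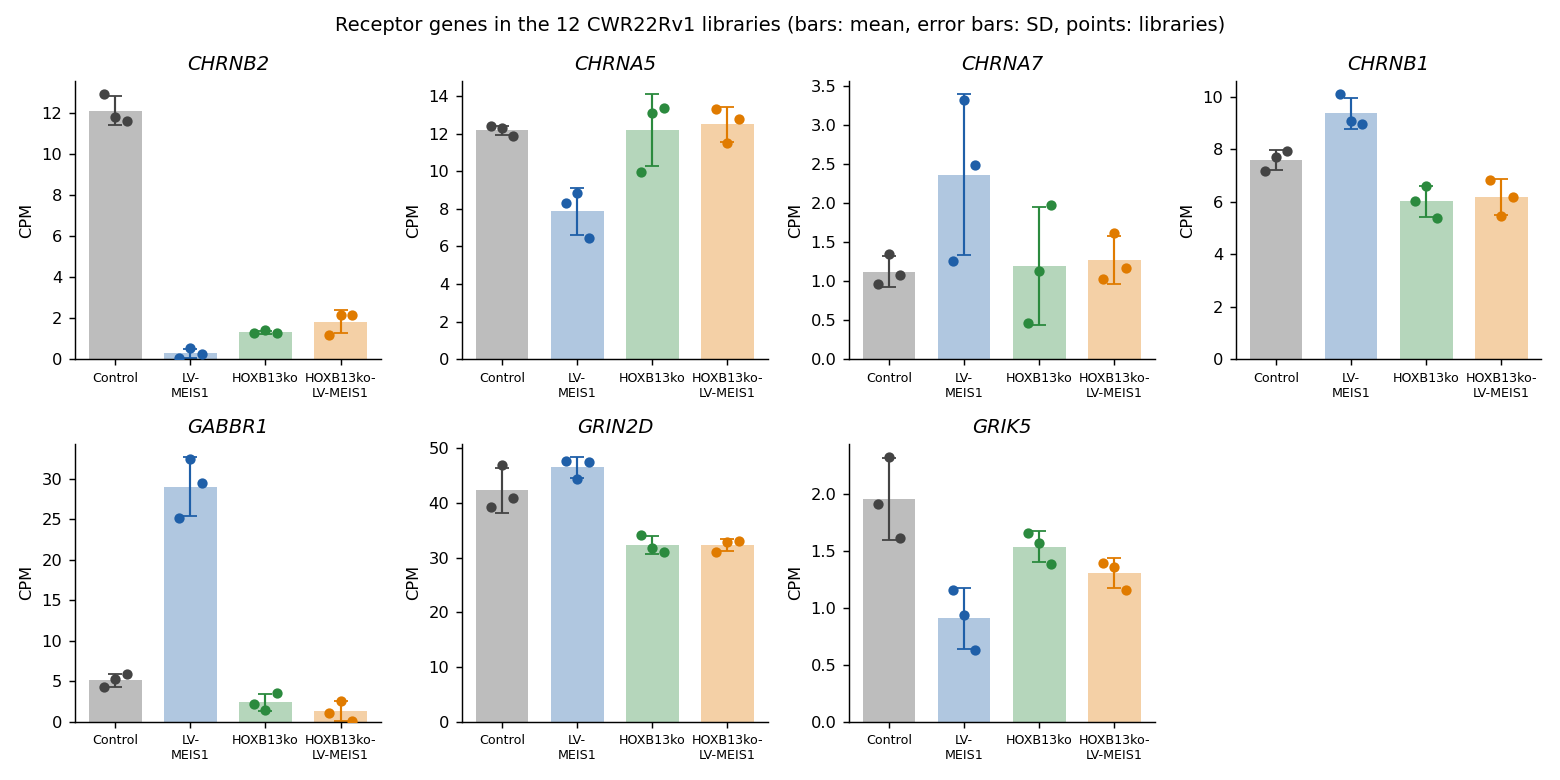
CPM (linear axes from 0) of the 7 receptor genes by group, with points for the 3 libraries of each group, bars for the mean and error bars for the SD. CHRNB2 is at 12.1 CPM in Control and at most 2.15 CPM in any other library, and GABBR1 is at 25.1 CPM or more in LV-MEIS1 and at most 5.87 CPM elsewhere.

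CHRNB2 (ENSG00000160716, chromosome 1, 154567778 to 154580013 on GRCh38, forward strand) was highest in the Control libraries. It was at 12.9, 11.8 and 11.6 CPM in Control, at 0.0553, 0.516 and 0.259 CPM in LV-MEIS1, at 1.27, 1.40 and 1.25 CPM in HOXB13ko and at 1.18, 2.13 and 2.15 CPM in HOXB13ko-LV-MEIS1. Every Control library lay above every other library, and every LV-MEIS1 library lay below all the others, with replicate 1 of LV-MEIS1 under the level of 3 reads. HOXB13ko and HOXB13ko-LV-MEIS1 overlapped. The Control mean of 12.1 ± 0.702 CPM (SD, n = 3) was 43.6 times the LV-MEIS1 mean of 0.277 ± 0.231 and 9.24 times the HOXB13ko mean of 1.31 ± 0.0792. The mean of HOXB13ko-LV-MEIS1, 1.82 ± 0.557 CPM, was 6.58 times that of LV-MEIS1. In bulk RNA, fewer cells expressing a gene and less RNA per cell cannot be told apart.

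On the scale of log2(CPM + 0.5), which narrows differences of low genes, CHRNB2 differed from Control by -4.06 (SE 0.22) in LV-MEIS1 and by -2.80 (SE 0.22) in HOXB13ko. The MEIS1 difference within the libraries labelled HOXB13ko was 0.33, with a 95% interval of -0.13 to 0.79, and the difference between the 2 MEIS1 effects was -4.39 (SE 0.31). These values have no p because CHRNB2 was chosen on these contrasts. They depend on the pseudocount: the LV-MEIS1 difference was -5.22 with a pseudocount of 0.1 and -3.37 with 1.

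Some neuroendocrine markers moved with CHRNB2. Of 10 such markers 6 were measured, and those not listed include CHGA, NCAM1 and INSM1. Their summed level was 248.0 to 261.0 CPM in Control, 171.0 to 178.0 in LV-MEIS1, 185.0 to 193.0 in HOXB13ko and 184.0 to 196.0 in HOXB13ko-LV-MEIS1, with most of it from ENO2 (163.0 to 187.0 CPM as group means), which many cells express. CHGB, SYP, SCG3 and SRRM4, genes of secretory vesicles and of neural splicing, were called lower in LV-MEIS1 than in Control. These are 66.7% of the 6, beside 3.99% of all genes. The same 4 genes were called lower in HOXB13ko than in Control, beside 1.41% of all genes. Calls here are by treat, the 1.5-fold test set out below, and SCG2 and ENO2 were called in neither comparison. By eBayes, the test against no change, 5 of the 6 were called lower in each, beside 44.5% and 32.9% of all genes called in either direction. SYP, for example, was at 17.0, 17.0 and 14.4 CPM in Control and at 1.24, 1.85 and 2.14 CPM in LV-MEIS1. The summed level of the 3 measured neuron markers was 117.0 to 123.0 CPM in Control, 77.3 to 88.5 in LV-MEIS1, 102.0 to 107.0 in HOXB13ko and 104.0 to 112.0 in HOXB13ko-LV-MEIS1. That sum joins genes that went opposite ways. From Control to LV-MEIS1 and HOXB13ko, mean MAP2 went from 55.2 CPM to 59.9 and 71.9. Mean TUBB3 went from 60.9 CPM to 22.4 and 32.4, and mean SNAP25 from 4.64 CPM to 1.36 and 0.648. The part of these genes in the CHRNB2 values was not tested.

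Among 13902 genes that averaged 1 CPM or more over the 12 libraries, the genes most like CHRNB2 by Pearson correlation were HBA2 (r = 0.986), PHF21B (r = 0.986) and SYP (r = 0.983). HBA2, an alpha-globin gene, had means of 14.9 CPM in Control, 0.0156 in LV-MEIS1, 1.46 in HOXB13ko and 1.78 in HOXB13ko-LV-MEIS1, and HBA1, a near-identical copy, can share its reads. The genes least like it were PHTF1 (r = -0.974), RAVER2 (r = -0.972) and CCDC170 (r = -0.969). These libraries fall into 4 groups, so the correlations mainly compare group means and are given as a description. The genes on either side of CHRNB2 did not share its pattern: UBE2Q1 and ADAR, the nearest, had LV-MEIS1 differences of 0.05 and 0.10 on the log2 scale, PMVK -0.06 and IL6R -0.56.

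GABBR1 (ENSG00000204681, chromosome 6, 29555629 to 29633976, reverse strand) went the other way in LV-MEIS1. It was at 4.28, 5.23 and 5.87 CPM in Control, at 25.1, 32.4 and 29.4 CPM in LV-MEIS1, at 2.19, 1.39 and 3.54 CPM in HOXB13ko and at 1.08, 2.58 and 0.141 CPM in HOXB13ko-LV-MEIS1. All LV-MEIS1 libraries were above all others, Control lay above both groups labelled HOXB13ko, and those 2 groups overlapped. The LV-MEIS1 mean of 29.0 ± 3.66 CPM (SD, n = 3) was 5.66 times the Control mean of 5.13 ± 0.800. The HOXB13ko mean was 2.38 ± 1.08 CPM and that of HOXB13ko-LV-MEIS1 1.27 ± 1.23, so that in the last group the SD was 97.0% of the mean.

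The log2 difference of GABBR1 from Control was 2.39 (SE 0.40) in LV-MEIS1 and -1.03 (SE 0.40) in HOXB13ko, given with no p as for CHRNB2. MEIS1 in the libraries labelled HOXB13ko went with a difference of -0.91 (95% interval -1.77 to -0.04). It was -0.31 without HOXB13ko-LV-MEIS1 replicate 3 and -1.44 without HOXB13ko-LV-MEIS1 replicate 2. The 2 MEIS1 effects differed by 3.30 (SE 0.57), or by 2.7 without that replicate 3 and by 3.84 without that replicate 2. GABBR1 lies in the extended major histocompatibility region, for which the Ensembl transcript set holds copies from alternate haplotypes, and how the authors' gene table joined such copies is not given in the sources used here. Its 7 overlapping genes in GENCODE, such as UBD and OR2H2, were not listed.

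GABBR1 was most like CELF5 (r = 0.980), CCDC88B (r = 0.973) and ANKRD30A (r = 0.971) and least like FYN (r = -0.977), UQCRC2 (r = -0.974) and RPL7L1 (r = -0.972) over the 12 libraries. ANKRD30A had means of 19.9 CPM in Control, 66.8 in LV-MEIS1, 11.1 in HOXB13ko and 8.16 in HOXB13ko-LV-MEIS1. Among the nearest listed genes on either side of GABBR1, ZNF311 varied widely, at 2.18, 0.0 and 4.4 CPM in Control and 10.7, 2.16 and 4.24 CPM in LV-MEIS1. Its LV-MEIS1 difference of 1.48 (SE 0.66) was called by neither test. TRIM27 differed by 0.36 and ZNRD1ASP by -0.14 on the log2 scale.

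**Figure D2:**
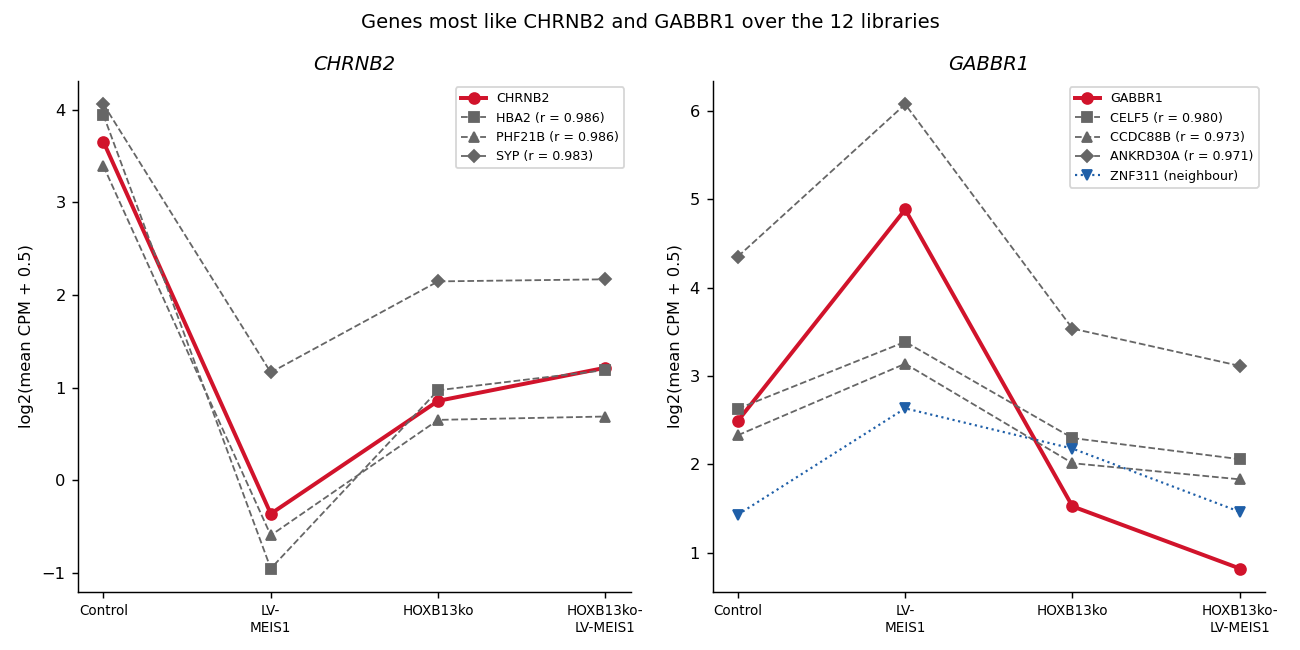
Group means, as log2(mean CPM + 0.5), of CHRNB2 (left) and GABBR1 (right) in red with the 3 genes of highest correlation over the 12 libraries in grey and, for GABBR1, the neighbour ZNF311 in blue. The CHRNB2 genes are all lowest in LV-MEIS1 and the GABBR1 genes all highest there.

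The other 5 genes were tested. A gene was called where limma's treat test found a change beyond 1.5-fold with a Benjamini-Hochberg adjusted p under 0.05 over all genes, and by eBayes where limma found any change at that level. In LV-MEIS1 against Control, treat called 2 of the 7 members, the 2 chosen genes, where it called 3.99% of all genes. It called 0 of the other 5, and 0 of them had an unadjusted treat p under 0.05. By eBayes 3 of these 5 passed and 5 of the 7, beside 44.5% of all genes. In HOXB13ko against Control, treat called CHRNB2 alone (1.41% of all genes) and 0 of the other 5, of which eBayes called 2 (32.9% of all genes). In HOXB13ko-LV-MEIS1 against LV-MEIS1, treat called CHRNB2 and GABBR1 (6.71% of all genes) and eBayes 3 of the other 5 (50.1%). For the difference of the MEIS1 effects the numbers were the 2 chosen genes by treat (2.93% of all genes) and 1 of the other 5 by eBayes (34.2%). The comparisons share groups, LV-MEIS1 and Control each entering more than 1 of them, and are not independent of each other. The values for CHRNB2 and GABBR1 only repeat how they were chosen.

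CHRNA5 (ENSG00000169684, chromosome 15, 78565520 to 78595269) was lower in LV-MEIS1. It was at 12.4, 12.3 and 11.9 CPM in Control, at 8.31, 8.86 and 6.47 CPM in LV-MEIS1, at 9.99, 13.1 and 13.4 CPM in HOXB13ko and at 13.3, 11.5 and 12.8 CPM in HOXB13ko-LV-MEIS1. LV-MEIS1 lay below each other group, and the other 3 groups overlapped. CHRNA5 fell by 0.61 (SE 0.13) on the log2 scale in LV-MEIS1 against Control by eBayes (adjusted p = 0.00124), and its 2 MEIS1 effects differed by -0.66 (SE 0.18, eBayes adjusted p = 0.0112). Neither passed the 1.5-fold treat test, with an adjusted p of 1.0 in each.

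The size of that difference was that of its surroundings. In a window of chromosome 15 from RPP25 to TARSL2 (74954418 to 101724473), which was picked by an earlier look at these data, 107 of 111 other genes averaging 5 CPM or more were lower in LV-MEIS1 than in Control. Their median log2 difference was -0.58, with quartiles of -0.79 and -0.43, and 52 of the 111 lay below CHRNA5. The 256 such genes elsewhere on the chromosome had a median of 0.05. Between HOXB13ko-LV-MEIS1 and HOXB13ko the median of the window was 0.01 and CHRNA5 stood at 0.05 (95% interval -0.22 to 0.31). CHRNA3 and CHRNB4, which lie next to CHRNA5 in a cluster of nicotinic genes, had LV-MEIS1 differences of -0.18 (SE 0.14) and -0.24 (SE 0.20), and neither was called. CHRNA3 overlaps CHRNA5 on the opposite strand and counting did not use strand, so reads of the 2 genes may be exchanged. The part of the window in the CHRNA5 value was not tested.

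**Figure D3:**
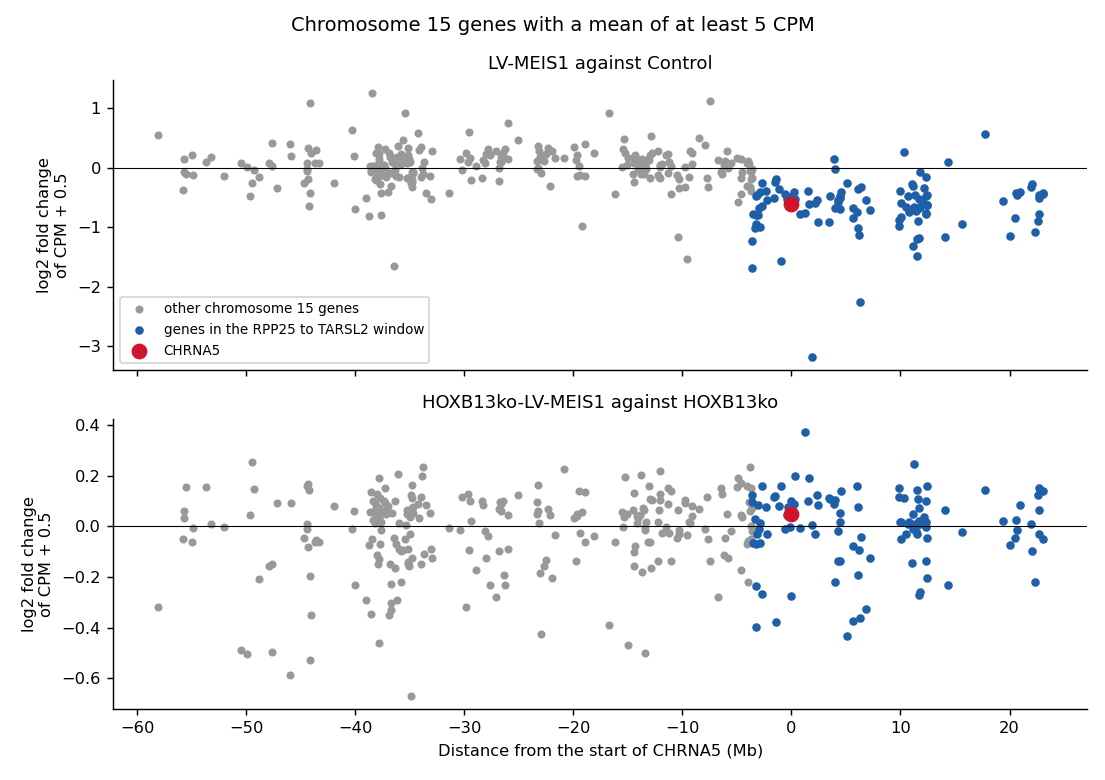
Log2 fold change of CPM + 0.5 (vertical) against distance in Mb from the start of CHRNA5 (horizontal) for chromosome 15 genes averaging 5 CPM or more, in LV-MEIS1 against Control (top) and HOXB13ko-LV-MEIS1 against HOXB13ko (bottom). CHRNA5, in red at -0.61 and 0.05, sits among the blue genes of its window, whose medians are -0.58 and 0.01.

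CHRNA7 (ENSG00000175344), on the same chromosome but outside that window (31923438 to 32173018), had the lowest level per length of the 7 in Control and wide scatter between replicates. Its values were 0.958, 1.34 and 1.08 CPM in Control, 1.26, 3.32 and 2.49 CPM in LV-MEIS1, 0.461, 1.13 and 1.97 CPM in HOXB13ko and 1.03, 1.62 and 1.16 CPM in HOXB13ko-LV-MEIS1. All 4 groups overlapped. The LV-MEIS1 difference from Control was 0.75 (95% interval 0.07 to 1.43) and was called by neither test (eBayes adjusted p = 0.0673). CHRNA7 shares much of its sequence with the fusion gene CHRFAM7A, which was not listed, so its values are uncertain.

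CHRNB1 (ENSG00000170175, chromosome 17, 7445061 to 7457710) was at 7.17, 7.71 and 7.92 CPM in Control, at 10.1, 9.08 and 8.97 CPM in LV-MEIS1, at 6.02, 6.61 and 5.39 CPM in HOXB13ko and at 6.84, 5.47 and 6.2 CPM in HOXB13ko-LV-MEIS1. The groups ran from LV-MEIS1 over Control to the 2 groups labelled HOXB13ko, which overlapped each other and nothing else. CHRNB1 rose by 0.29 (SE 0.11) on the log2 scale in LV-MEIS1 (eBayes adjusted p = 0.0444) and fell by 0.32 (SE 0.11) in HOXB13ko (eBayes adjusted p = 0.0363). Between HOXB13ko-LV-MEIS1 and LV-MEIS1 it differed by -0.57 (SE 0.11, eBayes adjusted p = 0.00054). All 3 differences stayed under 1.5-fold on this scale, and the difference of its MEIS1 effects, 0.25 (95% interval -0.08 to 0.58), was called by neither test.

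GRIN2D (ENSG00000105464, chromosome 19, 48393668 to 48444931) showed a like order of groups. It was at 39.2, 47.0 and 40.8 CPM in Control, at 47.7, 44.3 and 47.5 CPM in LV-MEIS1, at 34.2, 31.8 and 31.0 CPM in HOXB13ko and at 31.0, 32.8 and 33.1 CPM in HOXB13ko-LV-MEIS1. LV-MEIS1 and Control overlapped, as did the 2 groups labelled HOXB13ko, and the second pair lay below the first. GRIN2D fell by 0.38 (SE 0.07) on the log2 scale in HOXB13ko against Control (eBayes adjusted p = 0.00128), and the 0.14 of LV-MEIS1 against Control was not called (95% interval -0.02 to 0.29). GRIN1, the subunit found in every NMDA receptor, went the same way and further: its means were 90.3 ± 3.77 CPM in Control, 113.0 ± 10.4 in LV-MEIS1, 48.3 ± 2.48 in HOXB13ko and 44.7 ± 3.65 in HOXB13ko-LV-MEIS1. GRIN1 fell by 0.90 (SE 0.07) on the log2 scale in HOXB13ko, called by treat (adjusted p = 0.0318). That call was lost when any 1 of Control replicates 2 and 3 or HOXB13ko replicates 1 and 2 was left out.

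GRIK5 (ENSG00000105737, chromosome 19, 41998321 to 42070206, reverse strand) was low throughout, at 1.92, 2.33 and 1.62 CPM in Control, 1.16, 0.937 and 0.629 CPM in LV-MEIS1, 1.66, 1.57 and 1.39 CPM in HOXB13ko and 1.40, 1.36 and 1.16 CPM in HOXB13ko-LV-MEIS1. Control and LV-MEIS1 did not overlap, while each group overlapped its neighbour in the order of means. It fell by 0.81 (SE 0.18) on the log2 scale in LV-MEIS1 against Control by eBayes (adjusted p = 0.00214) and was not called by treat. The difference of its MEIS1 effects, -0.64 (95% interval -1.18 to -0.09), missed the eBayes threshold (adjusted p = 0.0651). GRIK5 overlaps ZNF574 on the opposite strand, and its reads can be mixed with those of that gene.

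Within the libraries labelled HOXB13ko, MEIS1 went with no called change in these genes. Between HOXB13ko-LV-MEIS1 and HOXB13ko 0 of the 7 members were called, by treat (0.00717% of all genes) and by eBayes (0.0502% of all genes). Treat called 1 of all 13951 genes there, MEIS1 itself, so the lack of calls is not particular to these genes. With no adjustment, 0 had a treat p and 1 an eBayes p under 0.05. All 7 overlapped between these 2 groups, while 21.1% of all genes did not. The 95% intervals of the log2 difference were -0.15 to 0.15 for GRIN2D, -0.20 to 0.27 for CHRNB1, -0.56 to 0.21 for GRIK5 and -0.52 to 0.84 for CHRNA7, so differences of those sizes remain possible. By the same count, LV-MEIS1 did not overlap Control in 5 of the 7 genes (51.3% of all genes), HOXB13ko did not overlap Control in 4 (44.9% of all genes) and HOXB13ko-LV-MEIS1 did not overlap LV-MEIS1 in 5 (58.3% of all genes). These shares over all genes are large, and nothing about the 7 genes is read from the counts. The median log2 difference over the 7 from Control was 0.14 in LV-MEIS1 and -0.32 in HOXB13ko, beside 0.007 and -0.002 over all genes, and that of HOXB13ko-LV-MEIS1 from LV-MEIS1 was -0.52, beside -0.02.

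A wider list of 69 acetylcholine, GABA and glutamate receptor genes held 31 that were measured, 24 of them outside the set. Treat called 5 of the 24 between LV-MEIS1 and Control, 1 higher and 4 lower, which is 20.8% of them beside 3.99% of all genes. Among those lower was GABRB2, a beta subunit gene of the GABA-A chloride channel. It was at 57.0, 46.7 and 48.8 CPM in Control and at 9.8, 8.25 and 7.62 CPM in LV-MEIS1, a log2 change of -2.51 (SE 0.09, adjusted p = 6.5e-10), and at 66.2 to 72.6 CPM in the libraries labelled HOXB13ko and HOXB13ko-LV-MEIS1. CHRNA2, a nicotinic alpha subunit gene, fell from 22.1 ± 1.41 to 5.60 ± 0.710 CPM and CHRM4, a muscarinic receptor gene, from 4.08 ± 0.0298 to 0.858 ± 0.315 CPM. GABRA3, GABRE and GABRQ, other GABA-A subunit genes, were not called by treat.

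In HOXB13ko against Control, GRIN1 was the 1 gene of the 24 that was called, 4.17% beside 1.41% of all genes. Between HOXB13ko-LV-MEIS1 and HOXB13ko 0 of the 24 were called by limma's treat or eBayes (0 and 2 with no adjustment), where 0.00717% and 0.0502% of all genes were. In HOXB13ko-LV-MEIS1 against LV-MEIS1 6 of the 24 were called, 25% beside 6.71% of all genes. The difference of the MEIS1 effects was called for the same 5 genes as LV-MEIS1 against Control, 20.8% beside 2.93% of all genes. The median log2 difference of the 24 from Control was -0.21 in LV-MEIS1 and 0.08 in HOXB13ko, and that of HOXB13ko-LV-MEIS1 was -0.12 from HOXB13ko and 0.25 from LV-MEIS1. Values of 28 of the 31 are drawn in the map of receptor genes.

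**Figure D4:**
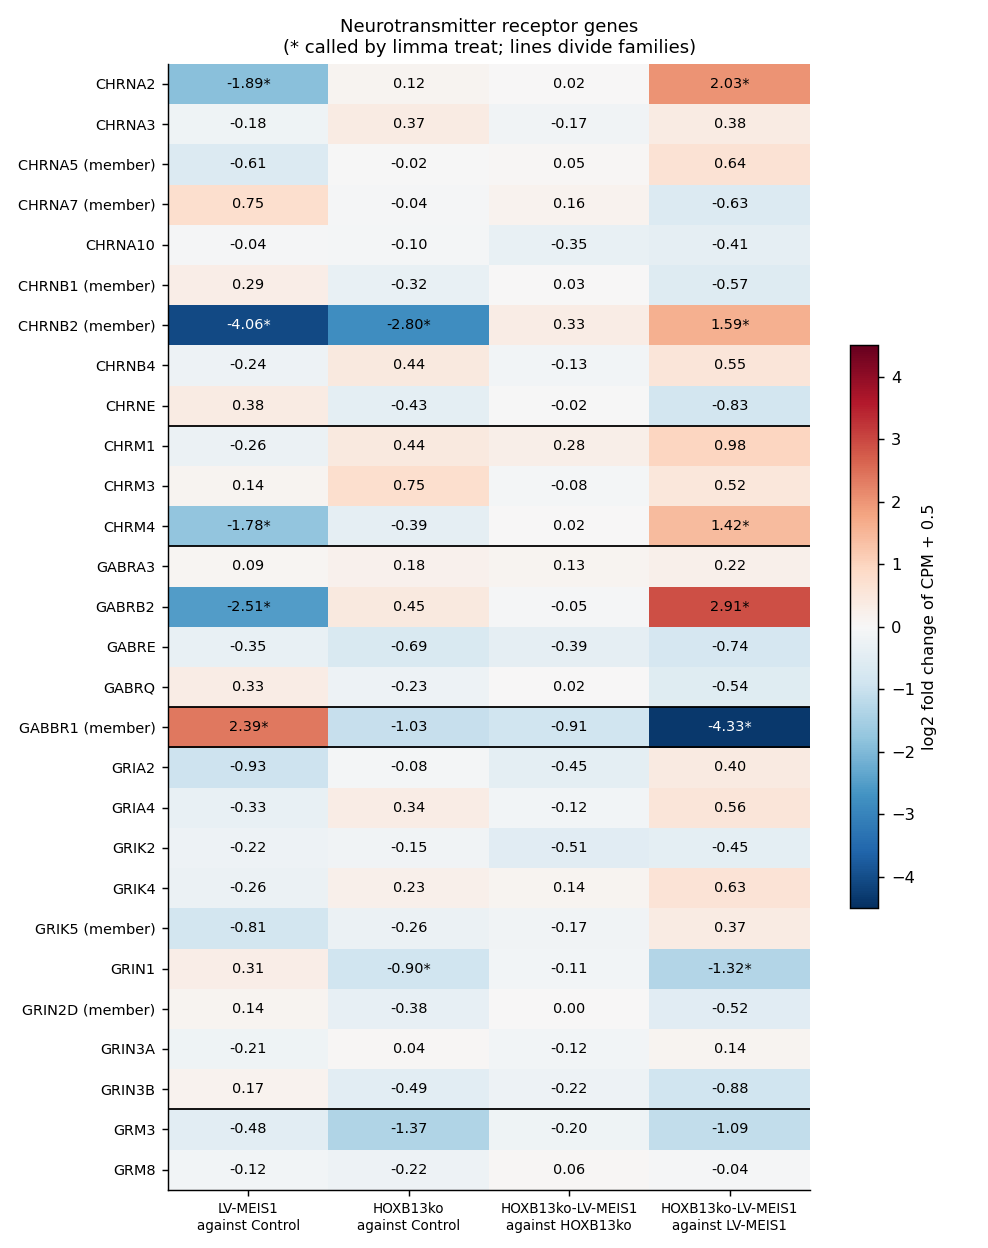
Log2 fold change of CPM + 0.5 (colour and printed value) of 28 receptor genes (rows, grouped by family) in 4 comparisons (columns), with a star where limma's treat called the gene. The first column holds 5 starred genes, the third holds 0.

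Genes that act with these receptors were examined by the same rule. Of 45 genes for assembly, scaffolding and signalling partners 34 were measured, and treat called 5 between LV-MEIS1 and Control (14.7% beside 3.99% of all genes), 7 between HOXB13ko-LV-MEIS1 and LV-MEIS1 (20.6% beside 6.71%) and 4 for the difference of the MEIS1 effects (11.8% beside 2.93%). It called 0 between HOXB13ko and Control, where 1.41% of all genes were called, and 0 between HOXB13ko-LV-MEIS1 and HOXB13ko, where 0.00717% were. Beside the 2 counts of 0, unadjusted treat p-values under 0.05 numbered 1 and 0, and eBayes called 13 and 0 of the 34, beside 32.9% and 0.0502% of all genes. KCNJ3, a subunit of the potassium channel that GABA-B receptors open, rose with GABBR1 in LV-MEIS1, from 15.3, 11.5 and 19.1 CPM to 40.8, 41.6 and 42.0 CPM (log2 change 1.43, SE 0.13, adjusted p = 0.0004). KCNJ9, another subunit of that channel, fell from 2.83 ± 0.186 to 0.905 ± 0.369 CPM. The glutamate receptor partners CACNG4, GRIP2 and SHANK2 fell by 2.30, 2.03 and 1.94 on the log2 scale. NETO1, a kainate receptor partner, was called in HOXB13ko-LV-MEIS1 against LV-MEIS1 (log2 difference 1.26).

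Of 26 genes that make, move or break down the transmitters 13 were measured. Treat called 2 in LV-MEIS1 against Control (15.4% beside 3.99% of all genes), the GABA transporter gene SLC6A11 (log2 change -1.70, SE 0.15) and the glutamate transporter gene SLC1A1 (log2 change -0.88, SE 0.08). It called SLC17A7, a vesicular glutamate transporter gene, in HOXB13ko against Control (log2 change -1.16, SE 0.08, 7.69% of the 13 beside 1.41% of all genes). Between HOXB13ko-LV-MEIS1 and HOXB13ko it called 0, where 0.00717% of all genes were called. There eBayes also called 0, beside 0.0502% of all genes, with 2 unadjusted eBayes p-values under 0.05. In HOXB13ko-LV-MEIS1 against LV-MEIS1 treat called 5 (38.5% beside 6.71% of all genes). Those 5 were SLC6A11, SLC1A1, SLC17A7, GLUL and BCHE, and the difference of the MEIS1 effects was called for SLC6A11 and SLC1A1 (15.4% beside 2.93% of all genes). The lists were chosen with earlier results of these data known and hold few genes, so nothing particular to them is read from these shares.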

How the data were processed

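RNA-seq was measured in 12 libraries of CWR22Rv1 derivatives, grouped by their labels. The deposited values are CPM: the authors used Trimmomatic 0.38 on single-end 50 bp reads, kallisto 0.43.1 to assign these to GRCh38.p12 transcripts of Ensembl, tximport to sum to genes, and edgeR 3.22.2, after removal of genes with low counts, to normalise libraries. Strand was not used in counting. Each table held 13993 rows. The 42 exact repeats were left out, and 13951 genes were analysed. Their CPM summed to 940564 to 992328 per library. Depth was estimated from steps between low values, and 48.4% to 60.9% of values under 1 CPM lay within 0.1 read of a whole number, so whole reads could not be had and count models were not used.

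Linear models of log2(CPM + 0.5), 1 mean per group, were fitted over all genes in limma 3.58.1 (R 4.3.3) with a trended prior. Genes were called by treat against a fold change of 1.5, or by eBayes against none, at a Benjamini-Hochberg adjusted p under 0.05. The fold threshold follows the authors' own test, which used counts. On simulated data the fit recovered 99 of 100 genes changed 4-fold and 66 of 100 changed 2-fold, with 0 of 13751 unchanged genes called, in a simulation of LV-MEIS1 against Control. Positions and transcript lengths are from GENCODE 44 (13664 symbols matched, 97.9%), promoter windows from RefSeq. The members, gene lists, markers and tests were chosen with earlier results of these data known. Named genes were the members, up to 6 called genes of each kind of list and comparison with the largest differences, the 3 most and 3 least alike genes and the 2 nearest neighbours on each side of CHRNB2 and GABBR1, and the neighbours of CHRNA5. HBA1, CHRFAM7A, ZNF574, GLUL, GABRA3, GABRE and GABRQ, the checked genes MEIS1 and HOXB13 and the markers were added to these by name. A few genes of the lists, called ones included, and 1 neighbour are counted but not reported here by name. Alternatives were a minimum mean of 1 CPM, other pseudocounts (0.1 and 1), scaling to equal sums or by the median of ratios, the replicate number as a block, a fit on the compared libraries alone, and leaving out each library.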

Additional observations from a re-analysis of the deposited data

Results flagged for a closer look

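The MEIS1 effect is the log2 difference that goes with lentiviral MEIS1. Between unedited cells and the libraries labelled HOXB13ko it differed for 5 of the 24 receptor genes measured outside the set. Limma's treat test of the difference itself called these 5, 20.8% beside 2.93% of all 13951 genes. The receptor list was chosen with earlier results of these data known, so nothing particular to it is read from this share. For CHRNB2 the 2 effects differed by -4.39 and for GABBR1 by 3.30, values on which both genes had been chosen. Among the 5 genes outside the set, GABRB2 differed by -2.46 (SE 0.12, adjusted p = 1e-07), CHRNA2 by -1.92 (SE 0.15, adjusted p = 1.9e-05) and CHRM4 by -1.81 (SE 0.28, adjusted p = 0.0147). For GABRB2, CHRNA2 and CHRM4 the effect in unedited cells was called and that in the libraries labelled HOXB13ko was not. HOXB13 mRNA was higher in those libraries, so the direction of each difference is by label.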

How the results depend on the processing

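The direction of CHRNB2 and GABBR1 in LV-MEIS1 against Control, and of the difference of their MEIS1 effects, was the same in every alternative run. With a pseudocount of 0.1, 1 of the 7 members was called in LV-MEIS1 against Control, since GABBR1 (log2 difference 2.48) was not called. GABBR1 and CHRNB2 were chosen on these contrasts, so whether they are called is a description and no test of them. Tested against no change (eBayes), 5 members were called between LV-MEIS1 and Control, 3 between HOXB13ko and Control and 5 between HOXB13ko-LV-MEIS1 and LV-MEIS1, and of the 31 receptor genes 14, 11 and 22, with 11 for the difference of the MEIS1 effects. Over all genes, eBayes called 6207 between LV-MEIS1 and Control (treat 557), 4590 between HOXB13ko and Control (treat 197), 7 between HOXB13ko-LV-MEIS1 and HOXB13ko (treat 1), 6993 between HOXB13ko-LV-MEIS1 and LV-MEIS1 (treat 936) and 4771 for the difference of the MEIS1 effects (treat 409). In HOXB13ko against Control the receptor genes called numbered 1 with the replicate block, since GRIN1 was lost, and 1 to 2 when 1 library was left out. The replicate numbers did not pair the libraries: deviations of same-numbered libraries correlated at -0.209 to 0.146, 2 of 18 pairs were above 0.1, and 0 libraries matched their own number best. In HOXB13ko-LV-MEIS1 against HOXB13ko treat called 1 gene, MEIS1. The count became 2 under 3 alternatives that kept all libraries of the 2 groups. These were a pseudocount of 0.1, the replicate block and the compared libraries alone. It was 1 to 2 with 1 library left out. Small differences that were not called changed sign when 1 library was left out: CHRNA5 (-0.09 to 0.12) and CHRNA7 (-0.37 to 0.31) between HOXB13ko and Control, and CHRNA5 (-0.08 to 0.12), CHRNA7 (-0.19 to 0.49), CHRNB1 (-0.04 to 0.11) and GRIN2D (-0.03 to 0.04, and -0.02 when scaled to an equal sum) in HOXB13ko-LV-MEIS1 against HOXB13ko. The cause was not tested. Depth limits CHRNB2 in LV-MEIS1 and GABBR1 in HOXB13ko-LV-MEIS1, where single libraries lie near 3 reads.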
